A study of Acipenser schrenckii with 6 samples.

Results

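Secreted and membrane proteins that recognise microbial surfaces, together with the antibacterial proteins lysozyme and BPI, were followed in the gut of Amur sturgeon (Acipenser schrenckii) on 2 diets. Members are the loci whose annotated product contains 1 of 12 names: intelectin, galectin, ladderlectin, C-type lectin, fibrinogen-like, ficolin, serum amyloid, C-reactive protein, pentraxin, mannose-binding, lysozyme or bactericidal permeability-increasing. The rule gave 130 of the 82023 features in the table, on 47 sequences, and no locus carried the names ladderlectin or C-reactive protein. Some members hold 1 of the names without being a humoral defence lectin: the SVEP1 loci (large extracellular matrix proteins with a pentraxin domain), the neuronal pentraxins, the galectin-3-binding proteins and serum amyloid A-like 1.

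Artificially bred fish of similar genetic background were kept in net cages before release to the Songhua River. For 30 days they received either commercial feed or fresh Limnodrilus, a tubificid worm that had itself been raised in the water source of the fish so as to carry its microbes. The design asked whether such feeding before stock enhancement changes gene expression in the gut. There are 3 libraries per diet from homogenised intestine. Brush-border and goblet cell markers were detected in every library, with summed levels of 63.5 to 8743 and 479 to 2188 FPKM. The labels give no age and do not say whether a library is 1 fish or a pool, and p-values therefore refer to variation among these libraries, part of which may be technical.

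Pentraxins, ficolins and mannose-binding lectins are soluble proteins that bind sugars or phosphate groups on microbes, and ficolins and mannose-binding lectins start the lectin pathway of complement. In mammals the liver makes serum amyloid P and fibrinogen-like protein 1, while PTX3 is made at the site of inflammation by myeloid, endothelial and epithelial cells. Galectins bind beta-galactosides on cell surfaces and in the cytosol, intelectins bind sugars found on microbes and are secreted by goblet cells, and many C-type lectins are receptors on phagocytes. Lysozymes cleave bacterial cell wall peptidoglycan, and BPI binds the lipopolysaccharide of Gram-negative bacteria.

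Expression is given as FPKM (sequenced fragments relative to locus length and library size), as deposited. Diets were compared with limma-trend on log2(FPKM + 1). The fit took in all 23644 features that averaged 1 FPKM or more across the 6 libraries. A feature was called at a Benjamini-Hochberg adjusted p under 0.05, and a positive log2 fold change means a higher level with Limnodrilus on that scale, which understates the change of low loci. Recovered depth was 9.95 to 10.5 M reads in the commercial feed libraries and 13.9 to 19.7 M in the Limnodrilus libraries, so that the diets also differ in depth. With reads thinned to equal totals, the same 9 members were called as in the full data. The commercial feed libraries differed among themselves in cell type markers, and library 3 had the highest levels of immune cell markers of all 6. Of the marker lists not taken up again, 26 pancreatic acinar markers gave 0 calls by limma, 3 hemoglobin loci 1 higher, and 12 fibroblast markers 1 higher and 1 lower. In bulk tissue, fewer cells of a type and less RNA per cell cannot be told apart.

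Of the 130 members, 45 reached the minimum and were tested (34.6%, against 28.8% of all features). Another 12 were at 0 in every library and 73 were detected below the minimum. Between diets 8 members were higher with Limnodrilus, where 14.0% of all tested features were, and 1 was lower, where 3.64% were. In both directions together 9 of 45 members were called (20%), close to the 17.7% of all tested features. All 3 Limnodrilus libraries lay above all 3 commercial feed libraries for 13 members (28.9%, against 28.4% of tested features), and all below for 3 (6.67%, against 11.5%). The median log2 fold change was 0.26 over the tested members and 0.24 over all tested features. The members as a whole were thus called about as often as other features. By family, the higher members were 2 of 5 tested fibrinogen-like and ficolin loci, 3 of 6 pentraxins, 2 of 5 lysozymes and 1 of 11 C-type lectins. The 9 tested loci of the galectin family (2 of them galectin-3-binding protein-like), 2 intelectins, 2 mannose-binding proteins, 4 BPI loci and serum amyloid A-like 1 held 0. Serum amyloid A itself was not tested. These families are small, and whether they differ in their share of calls was not tested.

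**Figure D1:**
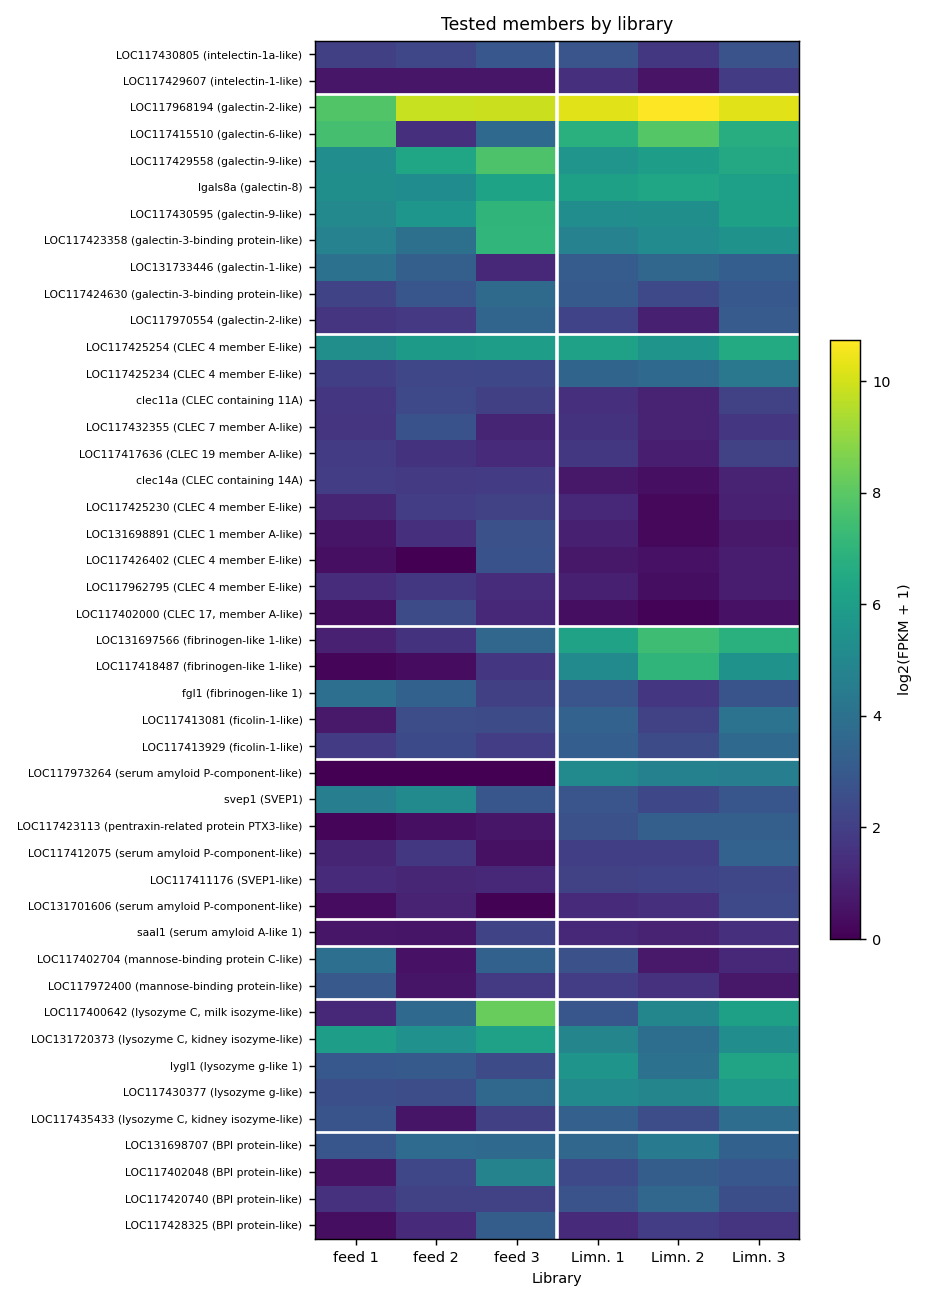
Level of each of the 45 tested members, as log2(FPKM + 1), in the 3 commercial feed libraries (left of the white line) and the 3 Limnodrilus libraries (right), grouped by family. Galectin-2-like LOC117968194 is the brightest row in all libraries, and the serum amyloid P-component-like locus LOC117973264 is at 0 on the left and bright on the right.

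**Figure D2:**
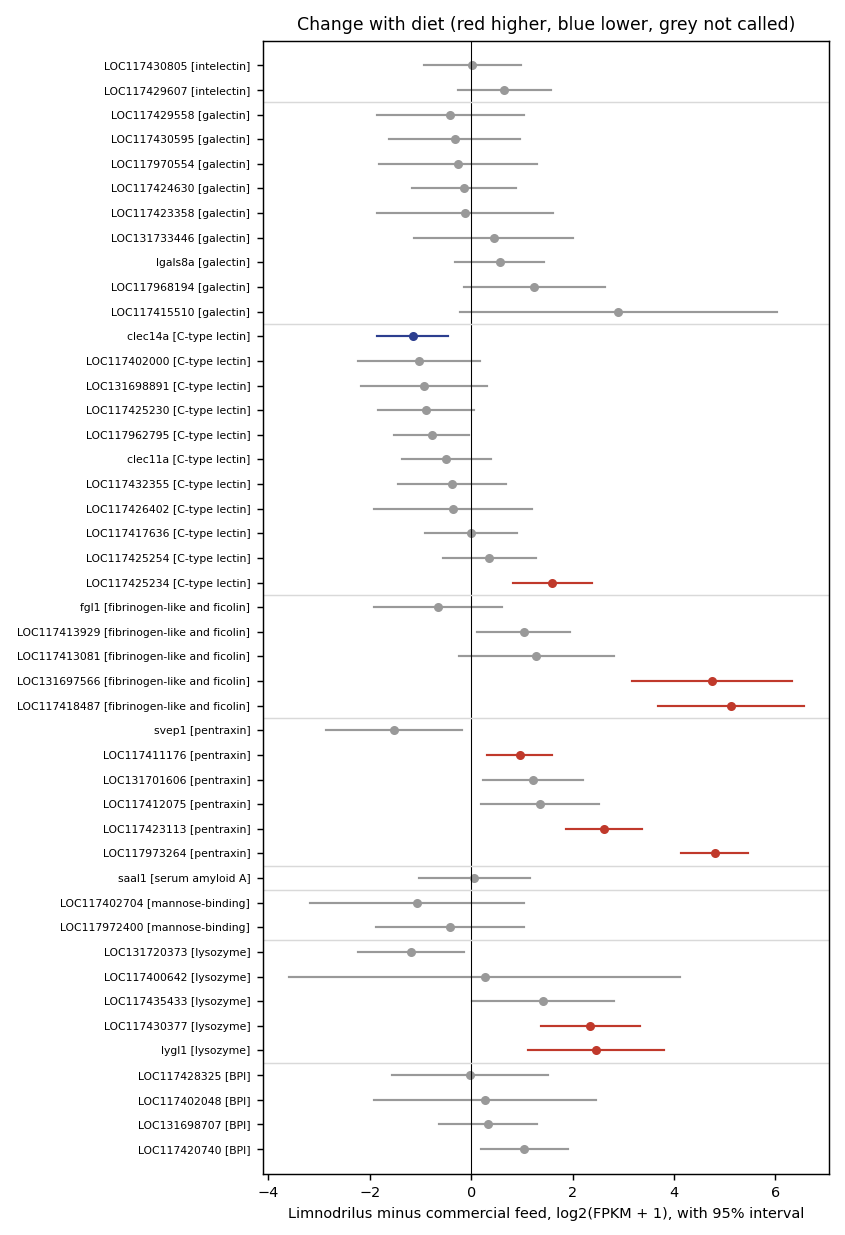
Log2 fold change of each tested member (point) with its 95% interval (bar) on the log2(FPKM + 1) scale, by family, with values above 0 higher on Limnodrilus. The 8 members called higher are red, the 1 called lower is blue, and the 3 largest changes are the FGL1-like loci and LOC117973264.

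The pentraxin group comprised 19 loci, of which 6 were tested, 3 were higher with Limnodrilus and 0 were lower. Of all tested features 14.0% were higher. The group takes in neuronal pentraxins and SVEP1 loci besides the soluble acute-phase pentraxins, and 1 of the 3 higher loci is SVEP1-like. The serum amyloid P-component-like locus LOC117973264 (NC_081209.1, 5572528 to 5573183) had 0 FPKM and 0 recovered reads in each commercial feed library, and 33.0, 25.5 and 23.2 FPKM (300, 329 and 259 reads) in Limnodrilus libraries 1, 2 and 3. The groups did not overlap, and the Limnodrilus mean of 27.2 ± 5.12 FPKM (SD, n = 3) was 61.0 times the floor of 3 reads per commercial feed library. Its log2 fold change was 4.80 ± 0.29 (SE; limma adjusted p = 0.00235). The commercial feed values, all at 0, add no spread to that SE. For the same reason the log2 fold change stayed at 4.80 without any 1 commercial feed library. Among the 77 tested features at 0 in all commercial feed libraries, which reached the minimum only through the Limnodrilus libraries, it had the second highest mean with Limnodrilus. Serum amyloid P is a liver product in mammals, and Limnodrilus library 1, the highest for this locus, was also the highest in hepatocyte markers. Their mean log2(FPKM + 1) was 3.10 there, 1.33 and 1.58 in Limnodrilus libraries 2 and 3, and 1.01 to 1.21 on commercial feed. That mean is over tested markers, and fga, fgb and fgg among them reached the minimum only through Limnodrilus library 1, so the filter favoured that library. Brush-border markers were at 5.13, 6.25 and 5.12 in the Limnodrilus libraries and at 1.61, 3.05 and 4.93 on commercial feed. The part of either cell type in the change of this locus or of the other pentraxins was not tested. Of the 10 neighbouring features examined around it, 2 were called, both higher, where 17.7% of all tested features were called. One is an unannotated feature 2.41 kb away and the other is refilin-A-like LOC117428497, 5.71 kb away. The latter measured 4.08, 5.03 and 7.00 FPKM on the feed diet and 25.7, 39.1 and 20.97 on worms. Another unannotated feature, 3.765 kb away, was not called (limma adjusted p = 0.309).

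The other serum amyloid P-component-like loci were expressed on both diets. LOC117412075 (NC_081204.1) measured 1.14, 2.36 and 0.392 FPKM on commercial feed and 3.01, 3.02 and 9.38 on Limnodrilus. LOC131701606 (NC_081213.1) measured 0.286, 1.13 and 0.0563 against 1.53, 1.77 and 4.20 FPKM. In both the groups did not overlap, with the Limnodrilus libraries all above as for 28.4% of all tested features, and Limnodrilus library 3 was highest. Neither passed the test, with log2 fold changes of 1.35 (95% interval 0.19 to 2.52, limma adjusted p = 0.0999) and 1.22 (0.24 to 2.20, limma adjusted p = 0.0849). The commercial feed mean of LOC131701606 was 0.490 FPKM, so this locus reached the minimum only through the Limnodrilus libraries. The remaining 2 loci of that name, LOC131729687 and LOC117968805, did not exceed 0.391 FPKM in any library.

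The long pentraxin PTX3-like locus LOC117423113 (NC_081205.1, 29059068 to 29064349) is named for a protein that binds microbes and complement C1q. It measured 0.104, 0.361 and 0.583 FPKM (3, 10 and 17 reads) on commercial feed and 5.26, 8.48 and 8.48 FPKM (203, 464 and 402 reads) on Limnodrilus. Every Limnodrilus library was above every commercial feed library, and the log2 fold change was 2.63 ± 0.32 (SE; limma adjusted p = 0.00758). Its commercial feed mean, 0.350 FPKM, was 0.233 without library 3, and it reached the minimum only through the Limnodrilus libraries. A second PTX3-like locus, LOC117416633, did not reach the minimum, with 0.0711, 0 and 0.140 FPKM on commercial feed and 2.17, 0.280 and 2.46 on Limnodrilus.

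The SVEP1-like locus LOC117411176 measured 1.47, 1.22 and 1.33 FPKM on commercial feed and 3.30, 3.43 and 3.86 on Limnodrilus. The groups did not overlap and the spread within each was small, and the log2 fold change was 0.95 ± 0.27 (SE; limma adjusted p = 0.0490). That call was close to the threshold: it was lost without each of the 6 libraries in turn and held in 3 of the 17 alternatives that gave a value. The annotated svep1 gene averaged lower with Limnodrilus without passing, at 23.2, 33.6 and 6.31 FPKM against 6.06, 3.97 and 6.35 (log2 fold change -1.52, limma adjusted p = 0.106). Commercial feed libraries 1 and 2 alone were high for svep1, and it was called lower when library 3 was left out. Smooth muscle markers were also highest in libraries 1 and 2, at a mean of 7.10 and 6.26 on the log2(FPKM + 1) scale against 3.96 in library 3 and 5.66 to 6.18 with Limnodrilus. Their part in the svep1 values was not tested. The 8 neuronal pentraxin and the 2 pentraxin-4 loci were all below the minimum.

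Among fibrinogen-like proteins and ficolins, 5 of 15 loci were tested and 2 were called, both fibrinogen-like protein 1-like and both higher with Limnodrilus. Of all tested features 14.0% were higher. LOC131697566 (NC_081203.1, 20585746 to 20590067) measured 0.971, 2.02 and 10.8 FPKM on commercial feed and 72.6, 169 and 110 FPKM on Limnodrilus. LOC117418487 (NC_081206.1, 17860617 to 17865389) measured 0.119, 0.289 and 2.23 FPKM (3, 7 and 57 reads) on commercial feed and 33.0, 130 and 43.5 FPKM (1117, 6244 and 1807 reads) on Limnodrilus. At both loci the groups did not overlap, commercial feed library 3 was the highest of its diet and Limnodrilus library 2 the highest of all. The log2 fold changes were 4.76 ± 0.68 (SE; limma adjusted p = 0.00909) and 5.13 ± 0.62 (SE; limma adjusted p = 0.00758), the latter the largest of any tested member on the log2(FPKM + 1) scale. With a pseudocount of 0.1 LOC117973264 was larger, at 8.08 against 6.62 for LOC117418487, and with limma-voom at 8.50 against 6.94. The commercial feed means of the FGL1-like loci, 4.60 and 0.879 FPKM, were 1.49 and 0.204 without library 3. The Limnodrilus mean of LOC117418487, 69.0 FPKM, was 38.3 without library 2.

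The gene annotated fgl1 (NC_081189.1) was not called. It measured 13.9, 9.00 and 3.13 FPKM on commercial feed and 6.02, 2.28 and 5.82 on Limnodrilus, with overlapping groups and a log2 fold change of -0.66 (95% interval -1.92 to 0.61, limma adjusted p = 0.430). Since fibrinogen-like protein 1 is a liver product in mammals, hepatocyte markers were set beside these loci. The fibrinogen chains fga, fgb and fgg were between 9.43 and 9.96 FPKM in Limnodrilus library 1 and at most 0.769 in the other 5 libraries. They thus reached the minimum only through Limnodrilus library 1, which favours that library in the mean of tested markers. None of the 13 tested hepatocyte markers was called by limma, and their mean was highest in Limnodrilus library 1, at 3.10. That library was the lowest of its diet for both FGL1-like loci, and the part of liver RNA in their levels was not tested.

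Brush-border markers of absorptive cells were, like the FGL1-like loci, highest in Limnodrilus library 2 and, within commercial feed, in library 3. Of the 16 tested brush-border markers 4 were called higher, where 14.0% of all tested features were, and the list median log2 fold change was 2.32. All 4 calls were lost without commercial feed library 2, without any 1 of the Limnodrilus libraries and with no filter. The mean of these markers was 4.93 in commercial feed library 3 and 5.13 and 5.12 in Limnodrilus libraries 1 and 3. In the same libraries LOC131697566 was at 10.8, 72.6 and 110 FPKM and LOC117418487 at 2.23, 33.0 and 43.5 FPKM. The part of absorptive cell content in the change of these loci was not tested.

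Ficolin-1-like LOC117413081 and LOC117413929, whose mammalian namesake is a lectin of monocytes and neutrophils, were not called. They measured 0.643, 4.74 and 4.64 against 9.51, 3.30 and 16.01 FPKM, and 2.64, 4.34 and 2.89 against 8.30, 4.47 and 11.8 FPKM. The second did not overlap between diets (log2 fold change 1.04, 95% interval 0.12 to 1.95, limma adjusted p = 0.107), and Limnodrilus library 3 was highest at both. A run of 4 further ficolin loci within 0.0622 Mb of NC_081205.1 (10925007 to 10987190) was below the minimum.

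**Figure D3:**
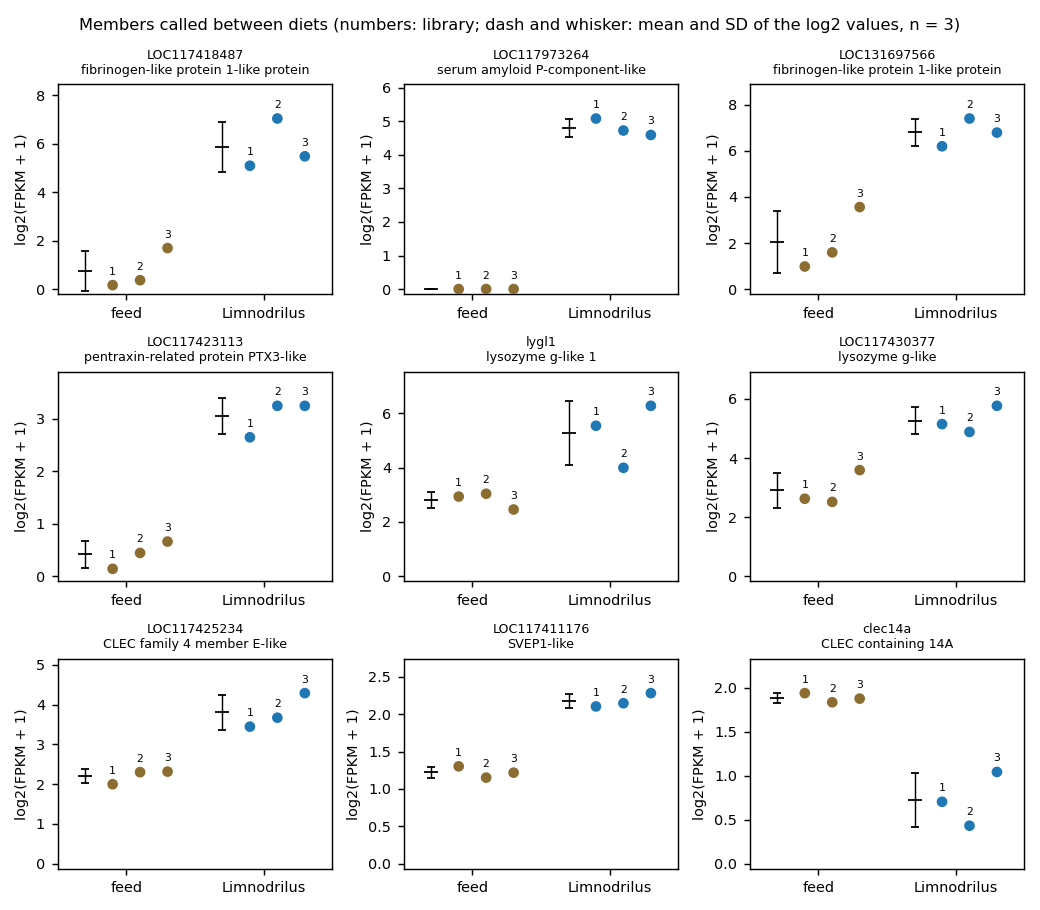
Level of the 9 called members in each library as log2(FPKM + 1), with commercial feed in brown and Limnodrilus in blue. Points carry the library number, and the dash and whisker give the mean and SD of the log2 values (n = 3). The diets do not overlap in any of the 9, which were picked by adjusted p, so this adds nothing to the calls. Over all tested features the Limnodrilus libraries were all above for 28.4% and all below for 11.5%.

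Lysozymes comprised 10 loci, 8 of the c type and 2 of the g type, and 5 of the 10 were tested. Both g-type loci were called higher with Limnodrilus, where 14.0% of all tested features were. Lysozyme g-like 1 (lygl1, NC_081204.1, 34770152 to 34774457) measured 6.65, 7.23 and 4.50 FPKM on commercial feed and 45.6, 14.9 and 76.4 on Limnodrilus. Lysozyme g-like LOC117430377 (NC_081214.1, 26652268 to 26656698) measured 5.16, 4.73 and 11.1 FPKM on commercial feed and 34.4, 28.5 and 53.4 on Limnodrilus. The groups did not overlap at either locus, and Limnodrilus library 3 was highest and library 2 lowest of its diet at both. The log2 fold changes were 2.46 ± 0.58 (SE; limma adjusted p = 0.0279) and 2.35 ± 0.42 (SE; limma adjusted p = 0.0142). The lygl1 mean with Limnodrilus, 45.6 FPKM, was 30.2 without library 3, and its call was lost without either of commercial feed libraries 1 and 2 and without either of Limnodrilus libraries 1 and 3. The LOC117430377 call was lost without any 1 of the Limnodrilus libraries. Both were called under the 3 other scalings and with the replicate block, and lygl1 was not called with no filter or with limma-voom. Granulocyte markers averaged 2.09, 1.85 and 2.65 (log2(FPKM + 1)) in Limnodrilus libraries 1, 2 and 3, the same order as at both g-type loci, and 1.047, 1.51 and 3.04 on commercial feed, where library 3 lay above all Limnodrilus libraries. Their part in the change of the g-type loci was not tested.

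None of the 3 tested c-type lysozymes was called, and the 5 loci named lysozyme C-like were not tested. The kidney isozyme-like locus LOC131720373 was abundant, at 63.4, 41.7 and 69.6 FPKM on commercial feed and 28.5, 13.7 and 37.3 on Limnodrilus. Its groups did not overlap, but the difference did not pass (log2 fold change -1.18, 95% interval -2.22 to -0.14, limma adjusted p = 0.107) except under median-of-ratios scaling, where it was called lower. Its neighbour LOC117435433 has the same product name, and both lie in 0.0276 Mb of NC_081191.1. It measured 5.98, 0.509 and 3.09 against 8.68, 4.84 and 13.3 FPKM, and was higher on average with Limnodrilus without passing (log2 fold change 1.41, limma adjusted p = 0.143). The milk isozyme-like locus LOC117400642 varied most within a diet, at 1.297, 11.7 and 301 FPKM on commercial feed and 6.22, 29.5 and 68.1 on Limnodrilus. Its estimate of 0.26 had a 95% interval of -3.60 to 4.13, so these libraries could not resolve even large changes at it.

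BPI-like proteins were 4 loci, all tested and none called by limma, and 1 had an unadjusted p under 0.05. Like the milk isozyme-like lysozyme, one pair of them stood highest in commercial feed library 3. BPI-like LOC117402048 measured 0.462, 3.92 and 26.6 FPKM on commercial feed and 4.16, 7.98 and 6.56 on Limnodrilus, and BPI-like LOC117428325 0.307, 1.51 and 8.04 against 1.46, 2.86 and 2.02. The other pair was higher in Limnodrilus library 2 than in any other library: LOC131698707 measured 6.23, 12.6 and 11.7 against 10.7, 19.98 and 9.13 FPKM, and LOC117420740 1.904, 3.23 and 3.32 against 5.73, 10.8 and 4.93. LOC117420740 was the one BPI-like locus without overlap between diets (95% interval of its log2 fold change 0.19 to 1.91, limma adjusted p = 0.0895).

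Galectins took most of the members' signal, 70.5% to 81.7% of their summed FPKM in each library, and none of the 9 tested of 16 loci was called by limma or had an unadjusted p under 0.05. Galectin-2-like LOC117968194 (NC_081243.1, 6674300 to 6676037) was the most abundant member, at 222, 912 and 933 FPKM on commercial feed and 1235, 1701 and 1202 on Limnodrilus. The diets did not overlap, but commercial feed library 1 lay far below libraries 2 and 3, and the log2 fold change was 1.24 (95% interval -0.15 to 2.64, limma adjusted p = 0.187). Galectin-6-like LOC117415510 varied by library on commercial feed, at 188, 1.81 and 11.5 FPKM, and was at 110, 242 and 102 FPKM on Limnodrilus. Commercial feed library 1 fell within the Limnodrilus range, and the log2 fold change of 2.90 (95% interval -0.22 to 6.03, limma adjusted p = 0.173) passed only when library 1, or libraries 1 and 2, were left out. Galectin-8 (lgals8a) overlapped between diets, at 39.6, 36.4 and 73.9 against 68.3, 78.5 and 65.4 FPKM.

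The galectin-9-like loci LOC117429558 and LOC117430595 were highest in commercial feed library 3, at 212 and 130 FPKM, against 31.9 to 89.0 FPKM in the other 5 libraries. Galectin-3-binding protein-like LOC117423358 reached 132 FPKM there and 14.6 to 44.1 FPKM elsewhere. Immune cell markers were highest in the same library. The 7 tested lymphocyte markers averaged 3.04 (log2(FPKM + 1)) in commercial feed library 3, 0.79 and 1.38 in libraries 1 and 2, and 0.93 to 1.94 with Limnodrilus. The 3 tested macrophage markers averaged 3.40 there and 1.59 to 2.39 in the other libraries, and the 16 granulocyte markers 3.04 against 1.047 to 2.65. Of the 26 tested markers of these 3 cell types 1 was called, cytochrome b-245 light chain, higher with Limnodrilus, where 14.0% of all tested features were. Commercial feed library 3 held the highest value for 14 of the 45 tested members (31.1%) and for 25.0% of all tested features. The part of immune cell content in these levels was not tested.

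The intelectin loci were low and were not called. Intelectin-1a-like LOC117430805 measured 3.06, 3.91 and 6.56 FPKM on commercial feed and 6.07, 2.35 and 5.65 on Limnodrilus. Intelectin-1-like LOC117429607 measured 0.558, 0.580 and 0.550 against 1.71, 0.477 and 2.67 FPKM, so that Limnodrilus library 2 lay below all commercial feed libraries and libraries 1 and 3 above. Their log2 fold changes were 0.02 (95% interval -0.94 to 0.98, limma adjusted p = 0.977) and 0.65 (-0.27 to 1.57, limma adjusted p = 0.288). Among goblet cell markers 6 of 29 tested features were higher and 0 lower, where 14.0% of all tested features were higher and 3.64% lower. Of the 6, LOC117394232 kept its call in all 6 fits that left 1 library out, and LOC131707227 in 0 of them. The mucin-2-like locus LOC131731604, also among the 6, measured 0.323, 2.19 and 2.69 against 9.80, 10.3 and 7.88 FPKM. Its call was lost without commercial feed library 2 and without any 1 of the Limnodrilus libraries. Whether the intelectin loci differ from the goblet markers in their change was not tested.

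The mannose-binding proteins were 4 loci, 2 of them tested and neither called. LOC117402704 and LOC117972400 lie in 0.0164 Mb of NC_081193.1 (75512871 to 75529262). They measured 14.3, 0.426 and 9.16 against 5.40, 0.646 and 1.28 FPKM, and 7.07, 0.527 and 2.53 against 2.86, 1.92 and 0.615 FPKM. Both had their highest value in commercial feed library 1 and their lowest of that diet in commercial feed library 2, so the spread within that diet exceeded the difference between diets. Serum amyloid A (saa), the classical acute-phase protein, did not reach the minimum. Serum amyloid A-like 1 (saal1) was low and overlapped between diets, at 0.565, 0.541 and 3.55 against 1.26, 1.049 and 1.71 FPKM.

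C-type lectin domain proteins were the largest family, with 58 loci, and most were low: 11 were tested, 8 were at 0 in every library and 39 were detected below the minimum. Of the 11, 1 was higher and 1 lower, where 14.0% and 3.64% of all tested features were. A run of 28 of them lies on NC_081208.1 between 13502266 and 17662464, a span of 4.16 Mb, and 18 of these carry the name C-type lectin domain family 4 member E-like, after Mincle, a phagocyte receptor for mycobacterial glycolipids. Within the run 5 loci were tested and 3 were at 0. The highest value fell in commercial feed library 3 for 14 of the 28, though most rested on few reads. Of all tested features 25.0% were highest there, but only 5 of the 28 were tested, so the shares are not of like sets.

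LOC117425234 (NC_081208.1, 16631107 to 16641371), one of the member E-like loci, measured 2.99, 3.93 and 3.97 FPKM on commercial feed and 9.90, 11.7 and 18.5 on Limnodrilus. The groups did not overlap and Limnodrilus library 3 was highest, and the log2 fold change was 1.60 ± 0.34 (SE; limma adjusted p = 0.0207). The call was lost without commercial feed library 2 and without any 1 of the Limnodrilus libraries. Its neighbour in the run LOC117425254 (NC_081208.1, 16576660 to 16583967) was the most abundant C-type lectin and was not called, at 38.3, 56.6 and 63.9 against 69.1, 46.1 and 92.1 FPKM (log2 fold change 0.35, limma adjusted p = 0.562). The other 3 tested loci of the run averaged lower with Limnodrilus and did not pass. LOC131698891 measured 0.509, 1.69 and 5.31 against 0.909, 0.160 and 0.679 FPKM (log2 fold change -0.93, limma adjusted p = 0.264) and was called lower when commercial feed libraries 1 and 2 were both left out. LOC117425230 was at 1.17, 2.85 and 3.17 against 1.31, 0.184 and 0.992 FPKM, and LOC117962795 at 1.58, 2.38 and 1.54 against 0.919, 0.305 and 0.757. The latter 2 (limma adjusted p = 0.166 and 0.129) were called lower under quantile normalization.

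The member called lower was clec14a (NC_081203.1, 27433240 to 27434845), a membrane protein of endothelial cells in mammals. It measured 2.83, 2.57 and 2.67 FPKM (47, 41 and 45 reads) on commercial feed and 0.628, 0.348 and 1.06 FPKM (14, 11 and 29 reads) on Limnodrilus. The commercial feed libraries lay close together and all above the Limnodrilus libraries, and the log2 fold change was -1.16 ± 0.30 (SE; limma adjusted p = 0.0382). Of 10 tested endothelial markers 0 were called by limma, and their means of 1.55, 2.20 and 1.72 on commercial feed overlapped those of 1.65, 1.17 and 1.79 on Limnodrilus. The clec14a call held in 7 of the 17 alternatives that gave a value and was lost without any 1 library other than commercial feed library 3. Its Limnodrilus mean was 0.679 FPKM, so it reached the minimum only through the commercial feed libraries. With no filter the call was lost.

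**Figure D4:**
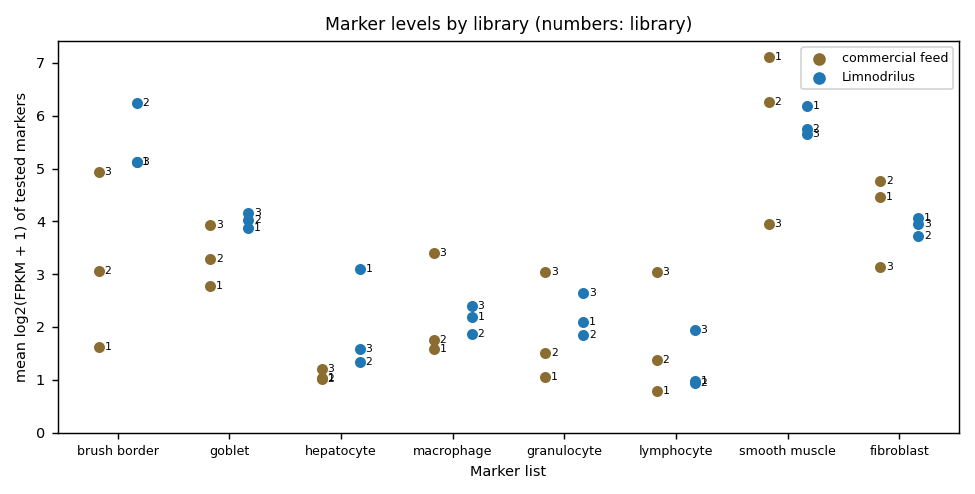
Mean log2(FPKM + 1) of the tested markers of each cell type in each library, with commercial feed in brown, Limnodrilus in blue and the library number beside each point. Commercial feed library 3 is highest in the macrophage, granulocyte and lymphocyte lists and lowest in smooth muscle and fibroblast, and Limnodrilus library 1 stands above the others in hepatocyte markers.

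Many members occurred as pairs on different sequences with neighbours of the same names. Taking the 15 annotated features on each side, 38 pairs of same-family loci shared at least 10 neighbour names (11 to 29), and these involved 68 of the 130 members. How the authors' counting treated reads that fit both copies is not given in the sources used here, so the split between near-identical copies is uncertain. In 11 pairs both loci were tested. Both were called in 2 pairs, the FGL1-like loci (27 shared names) and the g-type lysozymes (17), and neither was called in the other 9. The 2 loci had the same sign in 9 of the 11 pairs, which are not all independent. The milk isozyme-like lysozyme LOC117400642 is in 2 of them, with the kidney isozyme-like neighbours LOC117435433 and LOC131720373. Those neighbours had log2 fold changes of opposite sign (1.41 and -1.18), so these 2 pairs could not both agree.

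Some pairs kept one copy above the other in every library. The galectin-9-like copy LOC117429558 was above LOC117430595 in all 6 libraries, by 0.24 to 0.70 on the log2(FPKM + 1) scale. LOC131697566 was above its FGL1-like partner in all 6, by 0.37 to 1.87, with the smallest gap in Limnodrilus library 2. The intelectin LOC117430805 was above LOC117429607 in all 6, by 0.86 to 2.29. The g-type lysozymes changed rank, with lygl1 above in 4 libraries and below in commercial feed library 3 and Limnodrilus library 2. Of the called members, clec14a and LOC117423113 had a partner below the minimum. LOC117973264, LOC117425234 and LOC117411176 had no partner by this measure.

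**Figure D5:**
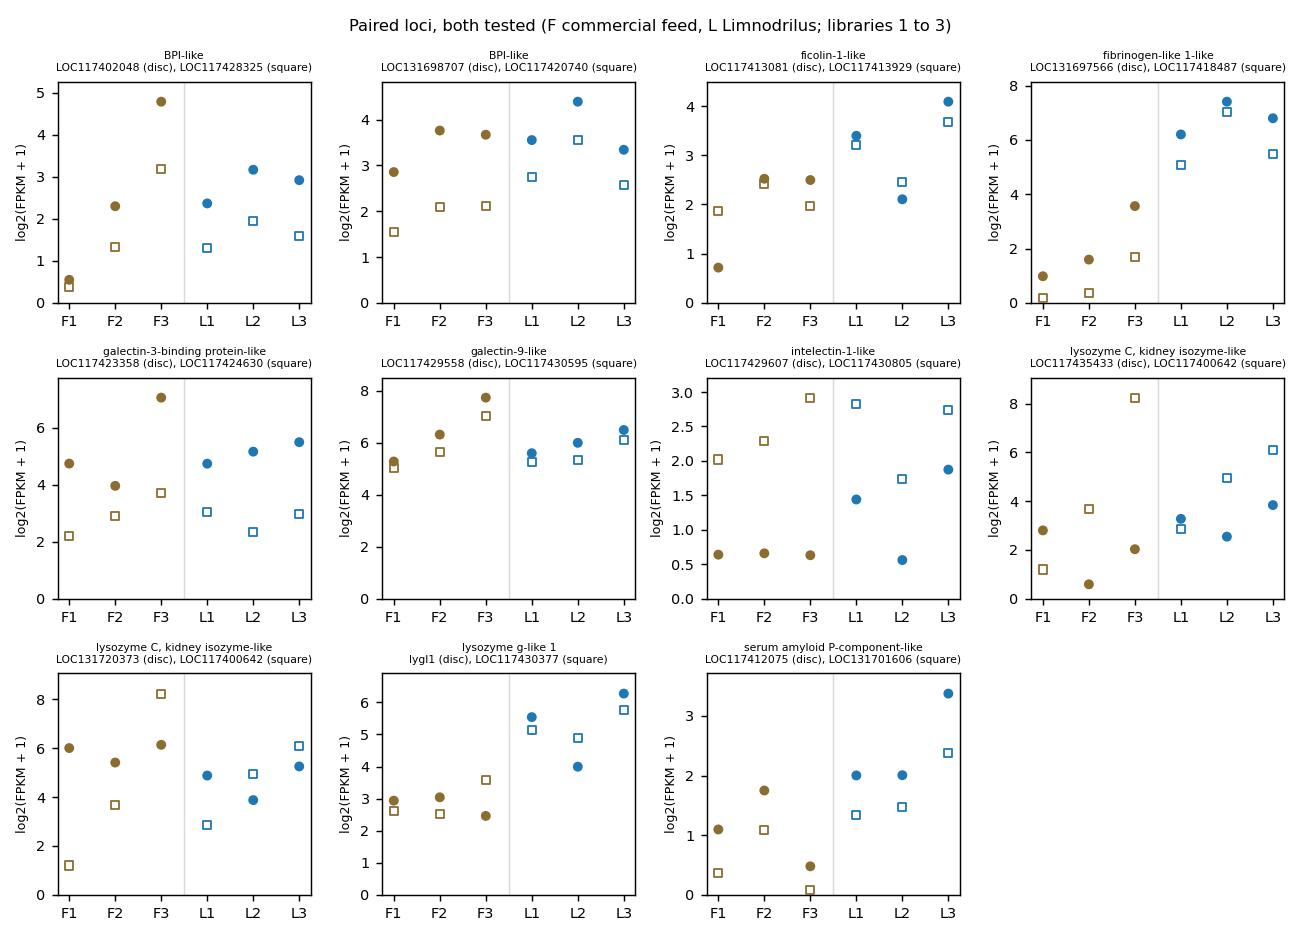
Level of both loci of each of the 11 pairs in which both were tested, as log2(FPKM + 1), in commercial feed libraries F1 to F3 (brown) and Limnodrilus libraries L1 to L3 (blue), with a disc for one locus and a square for the other. In the FGL1-like panel both loci are higher in L1 to L3 than in F1 to F3, and in the galectin-9-like panel both peak in F3.

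Of the surrounding pathways 1 of 17, 1 of 13 and 2 of 7 tested features were called higher and 0 lower, where 14.0% of all tested features were higher. The median log2 fold changes of the acute-phase regulators, the lectin pathway and complement list and the other antimicrobial proteins were 0.39, 0.12 and -0.19, beside 0.24 over all tested features. Of 17 tested acute-phase regulators, 1 was higher and 0 lower: the interleukin-6 receptor subunit beta-like locus LOC117400844, a signalling receptor chain for interleukin-6 family cytokines, at 2.47, 1.105 and 1.29 against 4.50, 5.997 and 5.11 FPKM (log2 fold change 1.27, limma adjusted p = 0.0340). Both STAT3 loci and both SOCS3 loci, the transcription factor and the feedback inhibitor of that pathway, did not pass. CCAAT/enhancer-binding protein beta (LOC117417374) measured 7.27, 8.10 and 93.2 against 124, 269 and 67.6 FPKM and did not pass (limma adjusted p = 0.0861).

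The lectin pathway and complement list was drawn by the names mannan-binding lectin serine protease, complement C1q, C1r, C1s, C2, C3, C4 and factor B. It is therefore not limited to the lectin pathway. Of its 13 tested features, 1 was higher, the complement C3-like locus LOC131706606 at 0.625, 0.229 and 0.109 against 2.79, 1.81 and 7.10 FPKM (log2 fold change 1.76, limma adjusted p = 0.0343). Its commercial feed values all lay below 1 FPKM, so it reached the minimum only through the Limnodrilus libraries. The interleukin-6 receptor and C3-like calls were both lost without commercial feed library 2 and without any 1 of the Limnodrilus libraries. Both were also lost with no filter, with quantile normalization and with the replicate block. The interleukin-6 receptor call was lost under median-of-ratios scaling too, and the C3-like call with limma-voom. Of 7 tested further antimicrobial proteins 2 were higher, both liver-expressed antimicrobial peptide 2-like. LOC117430844 measured 0.0845, 0 and 0.416 against 4.97, 5.06 and 11.1 FPKM (log2 fold change 2.72, limma adjusted p = 0.00903) and kept its call without each library in turn. With commercial feed values all below 1 FPKM, it too reached the minimum only through the Limnodrilus libraries, and its call held with no filter. LOC117400825 measured 0, 0 and 5.55 against 14.4, 98.8 and 39.3 FPKM (log2 fold change 4.40, limma adjusted p = 0.0195), and its call was lost without commercial feed library 2 and without Limnodrilus library 2 or 3. At LOC117400825 commercial feed library 3 was the highest of its diet and Limnodrilus library 2 the highest of all, as at the FGL1-like loci. LOC117430844 was instead highest in Limnodrilus library 3.

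Across all 18 alternatives the serum amyloid P-component-like locus LOC117973264 and the FGL1-like loci LOC131697566 and LOC117418487 stayed called, and PTX3-like LOC117423113 stayed called in the 17 that gave it a value. These 4 were the members called without Limnodrilus library 1 and without Limnodrilus library 3. Without Limnodrilus library 2, lygl1 was called besides them. Without commercial feed library 2, LOC117430377 was. The commercial feed means of LOC117423113 and LOC117418487 were 0.350 and 0.879 FPKM. These loci, like LOC117973264, thus reached the minimum only through the Limnodrilus libraries, where they are high. With no filter they were called at limma adjusted p = 0.0203 and 0.0197.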

How the data were processed

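Poly(A) RNA of gut tissue was sequenced in 6 libraries, 3 per diet. The authors deposited FPKM values for 82023 features with lengths and coordinates. The submitters' processing notes name cutadapt 1.9 and, as build, mm10 of the mouse, whereas the table uses RefSeq sequence names of another genome. Not given in the sources used here were the assembly, aligner, counter and use of strand, so coordinates are as deposited. Reads recovered from FPKM and length came out whole, within 0.1 read, for 100% of values up to 20 reads and 88.9% to 95.2% of all values, which gave the depths. At 1 kb, 3 reads are 0.286 to 0.302 FPKM with commercial feed and 0.153 to 0.216 with Limnodrilus, for counting error only.

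Computed here were log2(FPKM + 1) where the mean was 1 FPKM or more, limma 3.58.1 in R 4.3.3 with the empirical Bayes trend, 2-sided, adjusted over 23644 features, and tables in pandas 2.3.3. The table holds FPKM and no counts. An exact permutation test of 3 against 3 cannot go below 0.1. The fit was checked on simulated data. Named were, per family, up to 5 called members, the most abundant and the one of largest log2 fold change (19 members, 9 called). Other members described were chosen after their values were seen. The members and the marker and pathway lists were chosen with earlier results of these data known. Exclusions from the lists by product name, the endothelial list and the minimum of 10 shared neighbour names were set after matches or values had been seen. Alternatives were another pseudocount (0.1), filter (none, or a mean of at least 5 FPKM), scaling and variance model, the replicate number as a block, limma-voom on the recovered reads, leaving libraries out and, chosen after seeing the data, reads thinned to equal totals. No sequences were used.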

Additional observations from a re-analysis of the deposited data

How the results depend on the processing

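Of 335 values of the 19 named members under 18 alternatives, 273 kept direction and call, 40 lost the call, 2 gained one and 20 changed sign. All sign changes were at 3 loci that were not called and had estimates of 0.02, 0.07 and 0.26. LOC117430805 was at -0.23 (median-of-ratios), -0.22 (quantile), -0.039 (limma-voom), -0.024 (thinned reads), -0.49 (without commercial feed libraries 1 and 2) and -0.17 to 0.37 with 1 library left out. saal1 was at -0.075, -0.29 and -0.97 (median-of-ratios, quantile, without both libraries) and at -0.20 to 0.58 with 1 left out. LOC117400642 was at -0.052 (quantile), -3.61 (without both) and -1.32 to 2.20. The cause was not tested. Called features numbered 4182, against 2625 with a mean of at least 5 FPKM and 638 to 6295 with 1 library left out. Members called higher numbered 8, and 4 to 7 with 1 library left out. Members called lower numbered 1, against 0 with no filter, a mean of at least 5 FPKM, TPM scaling or limma-voom, 2 with median-of-ratios, 3 with quantile normalization, 4 without commercial feed libraries 1 and 2, and 0 to 2 with 1 library left out. Median-of-ratios scaling moved the median of all features from 0.24 to 0.01 and quantile normalization to -0.03. Higher and lower calls over all features were 3321 and 861 as deposited, 2235 and 1492 by median-of-ratios, 2298 and 1643 by quantile, and 1981 and 1920 without both libraries.

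Deviations from the diet means correlated at r = 0.19, -0.07 and 0.07 between same-numbered libraries of the 2 diets, and at -0.25 to 0.13 between the others. The labels state no pairing, and 3 libraries per diet are too few to exclude one by these values. With the replicate number as a block 2607 features, 7 members higher and 0 lower were called.

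The minimum mean of 1 FPKM left 73 detected members untested, and the 3 libraries per diet left wide intervals at galectins and c-type lysozymes.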
